A study of Mus musculus with 11 samples.

Results

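Chemokines are small secreted proteins that direct the migration of leukocytes, and each acts through G protein-coupled receptors carried by the cells it attracts. CC and CXC chemokines are named for the spacing of their leading cysteines, and the atypical receptors bind chemokines and remove them without signalling through G proteins. In the colon some of these ligands are made by the epithelium and draw lymphocytes to the mucosa, others are induced by inflammation, and others are made constantly by stromal and endothelial cells.

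The genes described here are the ligands and receptors of this family. They were chosen as the rows of the count table whose symbol begins with Ccl, Cxcl, Ccr, Cxcr, Cx3cl, Cx3cr, Xcl, Xcr or Ackr followed by a digit and that had at least 10 reads in at least 5 of the 11 mice. The table holds 43346 genes, of which 63 matched the name pattern and 45 also met the read minimum. These 45 members are 25 ligands, 16 signalling receptors and 4 atypical receptors, and all 45 were among the 19863 genes tested. The other 18 matching genes fell short of the minimum and were not tested.

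RNA was sequenced from the colon of male Swiss Webster mice aged 8 to 10 weeks. The 5 germ-free mice had no microbiota. The 6 humanized mice were germ-free animals gavaged at 4 to 5 weeks of age with 300 µL of stool suspension. The stool came from 1 healthy human donor, and the mice were then kept for 4 to 5 weeks. No group of mice with a mouse microbiota was compared, all humanized mice received microbiota of that donor, and the isolator of each mouse is not given in the sources used here. Total counts ran from 49097005 to 64148538 reads in germ-free mice and from 39125290 to 54219854 reads in humanized mice. Levels are given as RPKM, read counts scaled to library size after TMM normalization and to the deposited gene length, as mean ± SD. A log2 fold change (LFC) is humanized over germ-free with its SE, and FDR is the Benjamini-Hochberg adjusted p of the edgeR exact test over all tested genes, called below 0.01.

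The libraries carry the markers of colon epithelium at high level. The 11 epithelial marker genes summed to between 9107 and 11875 CPM (counts scaled to library size after TMM normalization, without gene length) in germ-free mice and between 10177 and 14181 CPM in humanized mice, and 3 of the 11 were higher and none lower in the exact test. The humanized mice were uneven. Humanized mouse 5 had the highest summed epithelial markers of all mice, 14181 CPM, and the lowest summed fibroblast markers, 112 CPM against 442 to 925 CPM in the other humanized mice. Values without this mouse are given beside Ccr10, Cxcl9, Cxcl12, Ackr3, Ccl11 and Ccl21a. These are whole-tissue samples, so fewer cells of a type and less RNA per cell cannot be told apart.

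The promoters of 4 genes are shown because these genes had the smallest FDR among the members that rose (Ccl20 and Ccl28), the largest rise (Cxcl9) and the largest fall (Cxcl12). Each is the run of 250 bases before the RefSeq start of the gene on its own strand, in GRCm38.p6, the assembly that mm10 represents. Capitals mark the match to the NF-kappaB consensus.
Ccl20, chr1:83116516-83116765, plus strand: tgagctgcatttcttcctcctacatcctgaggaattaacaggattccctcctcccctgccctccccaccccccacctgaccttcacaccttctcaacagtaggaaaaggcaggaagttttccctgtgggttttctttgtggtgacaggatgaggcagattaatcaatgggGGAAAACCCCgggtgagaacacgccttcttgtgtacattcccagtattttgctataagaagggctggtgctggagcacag
Ccl28, chr13:119623569-119623818, plus strand: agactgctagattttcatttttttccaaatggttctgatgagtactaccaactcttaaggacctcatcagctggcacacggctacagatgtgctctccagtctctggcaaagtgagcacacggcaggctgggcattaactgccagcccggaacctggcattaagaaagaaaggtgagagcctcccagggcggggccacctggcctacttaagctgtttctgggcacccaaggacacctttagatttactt
Cxcl9, chr5:92328080-92328329, minus strand: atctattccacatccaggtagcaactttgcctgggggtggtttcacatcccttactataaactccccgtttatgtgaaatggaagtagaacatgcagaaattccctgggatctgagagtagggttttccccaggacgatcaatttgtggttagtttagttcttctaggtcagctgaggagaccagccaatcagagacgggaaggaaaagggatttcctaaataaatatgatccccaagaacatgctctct
Cxcl12, chr6:117168285-117168534, plus strand: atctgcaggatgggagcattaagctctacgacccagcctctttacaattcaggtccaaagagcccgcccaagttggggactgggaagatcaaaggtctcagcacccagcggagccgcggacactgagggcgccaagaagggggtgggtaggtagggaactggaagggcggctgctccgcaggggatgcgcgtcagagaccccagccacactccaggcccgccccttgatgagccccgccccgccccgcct

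The RefSeq table held 38 promoters of 34 of the 45 members, since a gene can have more than 1. The NF-kappaB consensus, searched on both strands, was found in 6 of these 38 promoters, 15.8%, each of a different gene (Ackr2, Ccl20, Ccl9, Ccr1, Ccr6 and Cxcl10), and in 7.25% of all 32851 promoters. In Ccl20 it lay on the minus strand, from base -80 to base -71 relative to the start. The STAT consensus TTCNNNGAA was found in 3 of the 38 (Ccl17, Ccr6 and Cxcl14), 7.89%, and in 7.02% of all promoters, and the interferon-stimulated response element in 2 (Cxcl10 and Cxcl14), 5.26%, and in 2.98%. These shares were not tested. The same bases can match more than 1 of these motifs, and a match is a description of the letters only. None of the 3 was found in the Ccl28, Cxcl9 or Cxcl12 window.

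Of the 45 members, 7 were upregulated in humanized mice, which is 15.6%, against 9.20% of all genes tested. Downregulated members numbered 3, or 6.67%, against 10.1% of all genes. Ccr4 and Ccr8 met the read minimum mainly through the humanized mice, and without these 2 genes 6 of 43 members, or 14.0%, were upregulated. The upregulated genes were the ligands Ccl20, Ccl28, Ccl6, Cxcl9 and Xcl1 and the receptors Ccr4 and Ccr10. The downregulated genes were the ligands Cxcl12, Ccl11 and Ccl21a. Together 10 of 45, or 22.2%, were called, against 19.3% of all genes. The remaining 35 members did not pass, and the median LFC of all 45 was 0.07, beside 0.01 for all genes. With humanized mouse 5 left out, the exact test called 8 members higher, against 9.52% of all genes in that fit, and 4 lower, against 11.5%, and the added lower gene was the atypical receptor Ackr3. The edgeR quasi-likelihood test over all mice called 5 members higher, against 7.05% of all genes, and 0 lower, against 6.53%. At an unadjusted p below 0.05 that test had 9 members higher, against 19.8% of all genes, and 5 lower, against 19.4%. DESeq2 called 8 higher, the same 7 and Ccl5, and the same 3 lower, where it called 22.0% of all genes in either direction. Without humanized mouse 5 the quasi-likelihood test called 7 members higher, against 7.77% of all genes, and 4 lower, against 9.06%. Leaving out germ-free mouse 4 left 6 members higher in the exact test, against 6.99% of all genes, and 1 lower, against 7.45%. Leaving out humanized mouse 6 gave 8 higher, against 8.11%, and 5 lower, against 9.39%. The split of 7 higher to 3 lower became 5 to 5 when libraries were scaled by total counts and 4 to 4 when they were scaled to the epithelial markers. These scalings moved the median LFC of all genes by -0.18 and -0.24, and of all genes they called 3.89% higher and 18.2% lower with total counts and 2.62% higher and 14.0% lower with the epithelial markers.

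**Figure D1:**
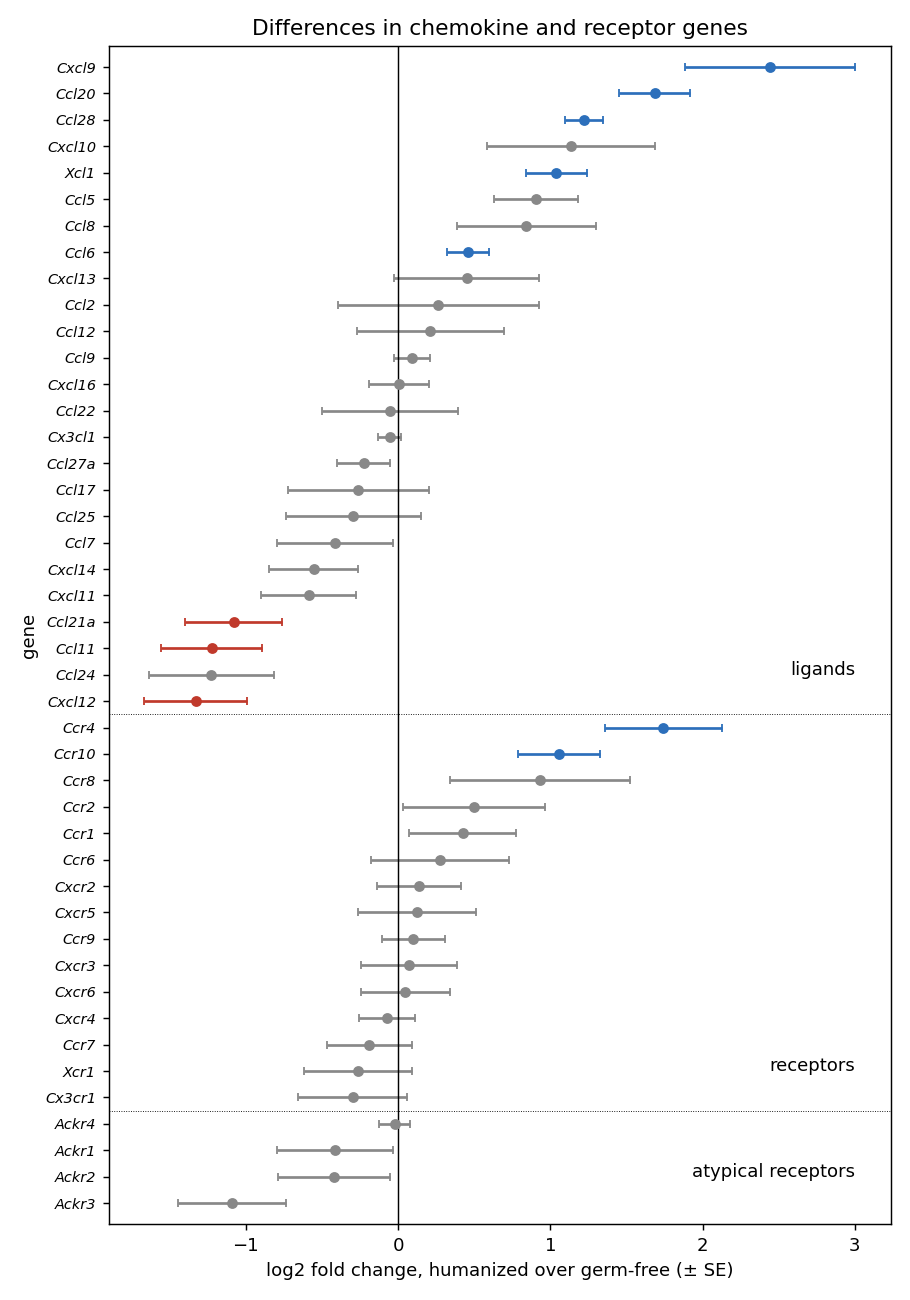
LFC of humanized over germ-free mice (horizontal axis, log2 scale) for 44 of the 45 members (vertical axis), with bars of 1 SE from the quasi-likelihood fit. Blue points are higher, red points lower and grey points not called at an FDR below 0.01 in the exact test, and dotted lines separate ligands, receptors and atypical receptors. The points run from -1.33 for Cxcl12 to 2.44 for Cxcl9.

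Ccl28 and Ccl20, the epithelial ligands of mucosal homing, were higher in every humanized mouse than in any germ-free mouse, and the receptor Ccr10 rose with them. The group of 7 tested genes (Ccl20, Ccl25, Ccl27a, Ccl28, Ccr6, Ccr9 and Ccr10) had 3 upregulated members, Ccl28, Ccl20 and Ccr10, and none downregulated, against 9.20% and 10.1% of all genes, with a median LFC of 0.28. The quasi-likelihood test called 2 of the 7, Ccl28 and Ccl20.

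Ccl28 (ENSMUSG00000074715, chr13:119623819-119654354 of mm10) encodes the mucosal epithelial chemokine that attracts IgA plasmablasts through CCR10. Its level in germ-free mice 1 to 5 was 21.6, 18.7, 19.4, 18.3 and 19.1 RPKM, and in humanized mice it ran from 34.9 through a median of 42.5 to 56.4 RPKM. Every humanized mouse was above every germ-free mouse, and mouse 5 was the highest. The means were 19.4 ± 1.30 and 45.2 ± 9.11 RPKM, a 2.33-fold rise (LFC 1.22, SE 0.12, edgeR exact test FDR = 1.11e-17). The exact permutation test over mice gave p = 0.00216, which is the smallest that 5 against 6 mice can give. Ccl28 was also the second most abundant member, at percentile 90.5 of mean RPKM among the tested genes.

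Ccl20 (ENSMUSG00000026166, chr1:83116766-83119167) encodes the epithelial ligand of CCR6, which draws dendritic cells and lymphocytes to mucosal lymphoid follicles. Its 5 germ-free values were 0.681, 0.753, 0.782, 0.755 and 0.453 RPKM, and the humanized values ran from 1.48 through a median of 2.10 to 3.32 RPKM. The groups did not overlap, and humanized mouse 2 was highest. The mean rose 3.21-fold from 0.685 ± 0.135 to 2.20 ± 0.676 RPKM (LFC 1.68, SE 0.23, edgeR exact test FDR = 1.35e-08; exact permutation p = 0.00216). Its receptor Ccr6 had 0.333 ± 0.0993 and 0.404 ± 0.278 RPKM and did not pass (LFC 0.28, SE 0.45, edgeR exact test FDR = 0.728).

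Ccr10 (ENSMUSG00000044052, chr11:101172997-101175443) encodes the receptor for CCL28 on IgA plasmablasts and for CCL27. In germ-free mice it was at 0.570, 0.576, 0.852, 0.807 and 0.688 RPKM, and in humanized mice it ran from 0.793 through a median of 1.31 to 2.19 RPKM. The groups overlapped through humanized mouse 5, whose value lay below those of germ-free mice 3 and 4. The means were 0.698 ± 0.130 and 1.46 ± 0.575 RPKM (LFC 1.06, SE 0.27, edgeR exact test FDR = 0.00257), and the exact permutation p was 0.0108. The call was lost when germ-free mouse 1, 2 or 5 or humanized mouse 2 was left out, with FDRs up to 0.0151. Without humanized mouse 5 the LFC was 1.19 (edgeR exact test FDR = 7.95e-05). The quasi-likelihood test with all mice did not call Ccr10 (edgeR FDR = 0.0120). The call was also lost when libraries were scaled by total counts, at an LFC of 0.90 (edgeR exact test FDR = 0.0195), and to the epithelial markers, at 0.89 (edgeR exact test FDR = 0.0540). Its skin-associated ligand Ccl27a had 1.62 ± 0.163 and 1.38 ± 0.347 RPKM and did not pass (LFC -0.22, SE 0.17, edgeR exact test FDR = 0.460).

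Plasma cell markers moved with this group. All 5 tested markers were higher, with a median LFC of 3.21, and their summed level was 21.1 to 109 CPM in germ-free mice and 152 to 1050 CPM in humanized mice. The lowest humanized sum was that of mouse 5, which had the highest Ccl28 and the lowest Ccr10 of its group. B cell markers had a median LFC of 1.35, with 1 of 7 higher in the edgeR exact test. At an unadjusted p below 0.05 in that test 5 of 7 were higher. The 7 summed to 4.80 to 9.98 CPM and 6.48 to 46.1 CPM. Lymphoid follicle markers, with 0 of 5 called in the edgeR exact test, in the other tests or at an unadjusted p below 0.05, summed to 5.87 to 8.78 CPM and 5.01 to 17.1 CPM. The part of these cells in the differences was not tested.

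**Figure D2:**
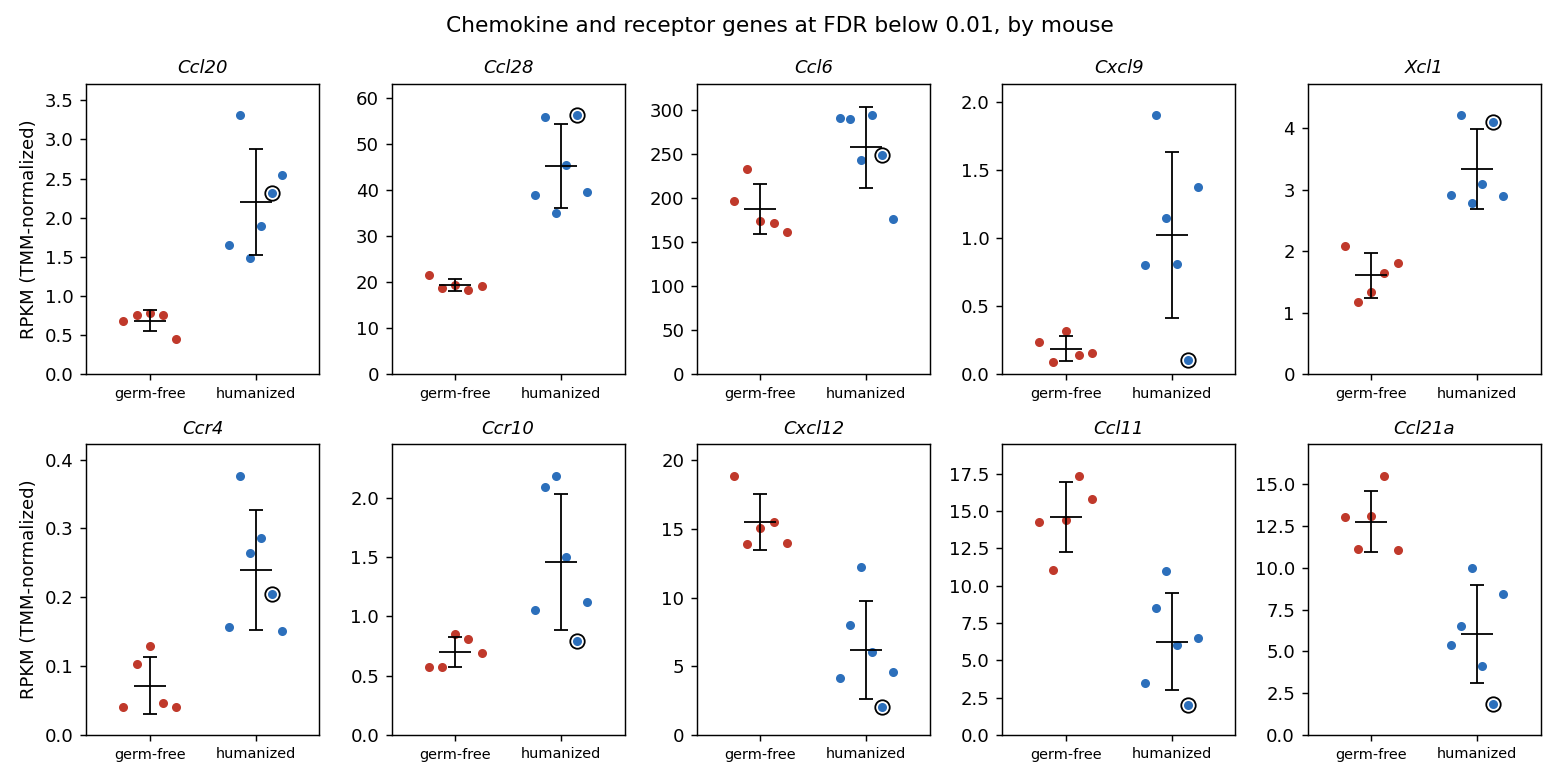
RPKM (vertical axes, each from 0) of the 10 called members in each of the 5 germ-free (red) and 6 humanized (blue) mice. Black bars are the mean and SD, and a circle marks humanized mouse 5. For Ccl28 the humanized mice sit between 34.9 and 56.4 RPKM, above all germ-free mice, and for Cxcl12 between 2.02 and 12.2 RPKM, below them.

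Among the interferon-inducible CXC ligands Cxcl9 alone passed. These ligands, induced by interferon-gamma, attract T and NK cells that carry CXCR3. Of the 4 genes Cxcl9, Cxcl10, Cxcl11 and Cxcr3, 1 was upregulated, against 9.20% of all genes, and none downregulated, against 10.1%. Their median LFC was 0.61. Cxcl9 (ENSMUSG00000029417, chr5:92321331-92328079) was at 0.235, 0.0921, 0.318, 0.138 and 0.158 RPKM in germ-free mice and ran from 0.101 through a median of 0.981 to 1.91 RPKM in humanized mice. Humanized mouse 5 was within the germ-free range and the other 5 were above it. The mean of 0.188 ± 0.0890 RPKM rose to 1.03 ± 0.611 RPKM, 5.43-fold (LFC 2.44, SE 0.56, edgeR exact test FDR = 2.43e-04; exact permutation p = 0.0238). Without humanized mouse 5 the LFC was 2.68 (edgeR exact test FDR = 2.32e-11).

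Cxcl10 had 0.236 ± 0.136 and 0.520 ± 0.333 RPKM (LFC 1.14, SE 0.55, edgeR exact test FDR = 0.133). Cxcl11 had 0.543 ± 0.0988 and 0.362 ± 0.152 RPKM (LFC -0.59, SE 0.31, edgeR exact test FDR = 0.185), and 41.7% of its exon bases are shared in GENCODE M21 with a pseudogene on the opposite strand, so its reads are uncertain. The receptor Cxcr3 was at 0.498 ± 0.107 and 0.527 ± 0.231 RPKM (LFC 0.07, SE 0.31, edgeR exact test FDR = 0.908). A difference between Cxcl9 and the other members of its group was not tested.

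Xcl1 (ENSMUSG00000026573, chr1:164931644-164935527) encodes lymphotactin, made by cytotoxic T cells and NK cells. The germ-free mice had 2.09, 1.17, 1.34, 1.65 and 1.81 RPKM, and the humanized mice ran from 2.78 through a median of 3.01 to 4.22 RPKM. No humanized mouse reached down to a germ-free value, and mice 2 and 5 were the highest. The mean rose 2.06-fold from 1.61 ± 0.367 to 3.34 ± 0.649 RPKM (LFC 1.04, SE 0.20, edgeR exact test FDR = 7.21e-05; exact permutation p = 0.00216). An antisense transcript shares 18.7% of the Xcl1 exon bases in GENCODE M21, and the kit does not keep the strand, so reads of the pair cannot be told apart. Scaled to the epithelial markers, Xcl1 had an LFC of 0.79 and did not pass (edgeR exact test FDR = 0.0203). Its receptor Xcr1, carried by cross-presenting dendritic cells, had 0.462 ± 0.0559 and 0.385 ± 0.175 RPKM (LFC -0.26, SE 0.36, edgeR exact test FDR = 0.658).

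T cell markers were higher in humanized mice, as Xcl1 and Cxcl9 were. Of 8 markers 6 were higher and none lower, with a median LFC of 1.21 and summed levels of 11.001 to 14.8 CPM against 16.9 to 35.7 CPM without overlap. Of 5 tested NK and cytotoxic markers 2 were higher, the granzymes Gzma (LFC 3.66) and Gzmb (LFC 3.22), and 1 was lower, the NK receptor Ncr1 (LFC -1.07). Their sums were 5.30 to 7.76 CPM and 7.08 to 29.3 CPM. Mouse by mouse the T cell sum did not always follow Xcl1 or Cxcl9. Humanized mouse 2 was the highest of its group for the T cell sum, Xcl1 and Cxcl9. Mouse 5 had 24.8 CPM of T cell markers but the lowest Cxcl9, 0.101 RPKM. Mouse 3 had 32.9 CPM but the lowest Xcl1, 2.78 RPKM, and mouse 6 had 19.5 CPM but Cxcl9 at 1.38 RPKM. The part of T, NK and cytotoxic cells in the level of Xcl1 or Cxcl9 was not tested.

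Ccl6 was by far the most abundant member. This CC ligand of CCR1, found in rodents, took 56.6% to 72.9% of the summed RPKM of all ligand members in a mouse and stood at percentile 99.0 among the tested genes. Ccl6 (ENSMUSG00000018927, chr11:83587882-83593087) was at 197, 233, 174, 172 and 162 RPKM in germ-free mice and ran from 177 through a median of 270 to 295 RPKM in humanized mice. The groups overlapped because humanized mouse 6 lay below germ-free mice 1 and 2. The means were 188 ± 28.7 and 258 ± 45.6 RPKM, a 1.37-fold rise (LFC 0.46, SE 0.14, edgeR exact test FDR = 0.00717; exact permutation p = 0.0216). Leaving out germ-free mouse 1, 3, 4 or 5 or humanized mouse 1, 2 or 4 ended this call, with FDRs up to 0.0354. The quasi-likelihood test did not call Ccl6 with all mice (edgeR FDR = 0.0252) or without humanized mouse 5 (edgeR FDR = 0.0278). Upper-quartile scaling gave an LFC of 0.42 and no call (edgeR exact test FDR = 0.0165). With the libraries scaled by total counts the LFC was 0.27 (edgeR exact test FDR = 0.146), and scaled to the epithelial markers it was 0.23 (edgeR exact test FDR = 0.362). The receptor Ccr1 was at 1.39 ± 0.206 and 1.86 ± 1.06 RPKM and did not pass (LFC 0.43, SE 0.35, edgeR exact test FDR = 0.433).

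The related CC genes did not move together. Of the 7 tested genes of the group of CCR1 and CCR3 ligands and their receptors 1 was upregulated, Ccl6, and 1 was downregulated, Ccl11. Of all genes 9.20% were upregulated and 10.1% downregulated. The median LFC of the 7 was 0.43. Ccl5, a T cell-derived ligand, was at 1.75, 1.31, 1.496, 1.72 and 1.98 RPKM in germ-free mice and ran from 1.56 through a median of 2.89 to 5.41 RPKM in humanized mice. Humanized mouse 6 lay within the germ-free range and mouse 2 was highest. The means of 1.65 ± 0.256 and 3.10 ± 1.35 RPKM did not pass (LFC 0.90, SE 0.28, edgeR exact test FDR = 0.0138). Ccl5 was called without humanized mouse 1 (edgeR exact test FDR = 0.00896) or 6 (FDR = 0.00145), and DESeq2 called it with all mice (DESeq2 FDR = 0.00716). Ccl9 was level at 8.43 ± 0.959 and 8.97 ± 1.46 RPKM (LFC 0.09, SE 0.12).

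Ccr4 (ENSMUSG00000047898, chr9:114490316-114496544) encodes a receptor of regulatory and type 2 helper T cells. It was among the least abundant members, at 0.0398, 0.103, 0.129, 0.0460 and 0.0411 RPKM in germ-free mice and from 0.150 through a median of 0.234 to 0.377 RPKM in humanized mice. Each value rests on few reads, 7 to 21 in a germ-free and 16 to 39 in a humanized mouse. Ccr4 had 10 reads or more in 2 of 5 germ-free and in 6 of 6 humanized mice, so it became a member through the group where it was high. Its difference is therefore in part fixed by that choice, and its values, which did not overlap between the groups, are a description. The LFC was 1.74 with an SE of 0.39, and the FDR in the fit over all genes was 1.97e-04 (edgeR exact test). Its ligands Ccl17 and Ccl22, made by dendritic cells, had LFCs of -0.26 (SE 0.47) and -0.05 (SE 0.44) and did not pass (edgeR exact test FDRs of 0.741 and 0.952). Ccr8, a receptor of the same T cells, was at 0.0982 ± 0.0464 and 0.191 ± 0.107 RPKM (LFC 0.93, SE 0.59, edgeR exact test FDR = 0.223), and it had 10 reads or more in 1 germ-free and 4 humanized mice. Of this group of 4 tested genes only Ccr4 was called in the exact test, which called 19.3% of all genes.

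The 3 downregulated members, Cxcl12, Ccl11 and Ccl21a, are ligands known from stromal and endothelial cells, and their cell source here was not measured. Cxcl12 (ENSMUSG00000061353, chr6:117168535-117181367) encodes the stromal ligand of CXCR4 that retains leukocytes in tissues. In germ-free mice it was at 18.9, 13.9, 15.1, 15.5 and 14.0 RPKM, and in humanized mice it ran from 2.02 through a median of 5.30 to 12.2 RPKM. All humanized mice were below all germ-free mice, mouse 5 being lowest and mouse 3 highest. The mean fell 2.51-fold from 15.5 ± 2.03 to 6.16 ± 3.58 RPKM (LFC -1.33, SE 0.34, edgeR exact test FDR = 7.23e-04; exact permutation p = 0.00433). The quasi-likelihood test did not call it with all mice (edgeR FDR = 0.0119) and called it without humanized mouse 5, at an LFC of -1.15 (edgeR quasi-likelihood FDR = 0.00483). Of the 3 tested genes of the constitutive CXC group, Cxcl12, Cxcl14 and Cxcr4, 1 was downregulated, against 10.1% of all genes. None was upregulated, against 9.20%. Their sum was 139 to 187 CPM in germ-free and 24.8 to 131 CPM in humanized mice. Cxcl14, a ligand of epithelium and stroma, had an LFC of -0.55 (SE 0.29) and did not pass (edgeR exact test FDR = 0.166). The signalling receptor Cxcr4 had 3.80 ± 0.624 and 3.61 ± 0.939 RPKM and did not pass (LFC -0.07, SE 0.18, edgeR exact test FDR = 0.850).

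Ackr3, the atypical receptor that scavenges CXCL12, also separated the groups but missed the threshold. Germ-free mice had 4.04, 3.86, 4.31, 5.45 and 6.06 RPKM, and humanized mice ran from 0.497 through a median of 2.31 to 3.76 RPKM. The highest humanized value, that of mouse 3, was just below the lowest germ-free value. The LFC was -1.09 with an SE of 0.35 (edgeR exact test FDR = 0.0131; exact permutation p = 0.00433). Without humanized mouse 5 the LFC was -0.88 (edgeR exact test FDR = 3.14e-04), and without humanized mouse 3 it was -1.30 (edgeR exact test FDR = 0.00192).

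Ccl11 (ENSMUSG00000020676, chr11:82057823-82062955) encodes eotaxin, the CCR3 ligand that keeps eosinophils in the gut. Its germ-free values were 14.3, 11.1, 14.4, 17.4 and 15.8 RPKM, and the humanized values ran from 2.02 through a median of 6.26 to 10.96 RPKM. The groups came close but did not overlap, with humanized mouse 3 at 10.96 RPKM and germ-free mouse 2 at 11.07 RPKM. The mean fell 2.33-fold from 14.6 ± 2.33 to 6.25 ± 3.25 RPKM (LFC -1.22, SE 0.33, edgeR exact test FDR = 0.00230; exact permutation p = 0.00649). The call was lost without germ-free mouse 4 (edgeR exact test FDR = 0.0120). The quasi-likelihood test did not call Ccl11 with all mice (edgeR FDR = 0.0163) and called it without humanized mouse 5 (edgeR quasi-likelihood FDR = 0.00677), where the LFC was -1.04 (edgeR exact test FDR = 3.45e-04). The related ligand Ccl24 had 1.33 ± 0.472 and 0.564 ± 0.418 RPKM and did not pass (LFC -1.23, SE 0.41, edgeR exact test FDR = 0.0174). Humanized mouse 6 was its highest of the group, at 1.38 RPKM, and without that mouse the LFC was -1.73 (edgeR exact test FDR = 8.16e-06). Their receptor Ccr3 lay below the read minimum, with 8 to 28 reads in each germ-free mouse and 0 to 4 reads in each humanized mouse. Of 2 tested eosinophil markers the surface lectin Siglecf was higher (LFC 1.44) and Prg2 had an LFC of -0.44 and was not called, and the sums were 1.28 to 1.93 CPM and 2.36 to 3.59 CPM.

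Ccl21a (ENSMUSG00000094686, chr4:42772860-42773993) encodes the lymphatic endothelial and lymphoid stromal ligand of CCR7. It has near-identical copies in the mouse genome, so its read count is uncertain. Germ-free mice had 13.0, 11.1, 13.1, 15.5 and 11.05 RPKM, and humanized mice ran from 1.84 through a median of 5.94 to 9.99 RPKM, below all of them. The means were 12.8 ± 1.84 and 6.04 ± 2.95 RPKM (LFC -1.08, SE 0.32, edgeR exact test FDR = 0.00652; exact permutation p = 0.00649). Leaving out any germ-free mouse or humanized mouse 1, 2 or 4 ended the call, with FDRs up to 0.0287. Without humanized mouse 5 the LFC was -0.89 and both the exact test (edgeR FDR = 6.41e-04) and the quasi-likelihood test (edgeR FDR = 0.00736) called it, whereas the latter did not with all mice (edgeR FDR = 0.0245). The receptor Ccr7 was at 0.551 ± 0.152 and 0.484 ± 0.184 RPKM (LFC -0.19, SE 0.28). The follicular ligand Cxcl13 had 3.66 ± 0.610 and 5.01 ± 3.48 RPKM (LFC 0.45, SE 0.48). Of the 4 tested lymphoid-organising genes 0 were upregulated, against 9.20% of all genes, and 1 was downregulated, against 10.1%.

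Stromal and endothelial markers moved with these ligands. Fibroblast markers, with 5 of 6 lower and a median LFC of -1.52, summed to 1306 to 1662 CPM in germ-free mice and 112 to 925 CPM in humanized mice. Lymphatic endothelial markers, with 3 of 4 lower, summed to 33.6 to 53.7 CPM and 10.9 to 31.1 CPM. Blood endothelial markers, with 0 of 5 called in the edgeR exact test, 4 of 5 lower at an unadjusted p below 0.05 and a median LFC of -0.91, summed to 90.7 to 106 CPM and 13.1 to 84.4 CPM. These 3 lists did not overlap between the groups, and in each of them humanized mouse 5 was lowest, as it was for Cxcl12, Ccl11, Ccl21a and Ackr3. Smooth muscle markers, with 8 of 8 lower, summed to 883 to 2492 CPM and 100.03 to 891 CPM, and enteric glial markers, with 3 of 4 lower, to 8.53 to 15.1 CPM and 1.66 to 5.17 CPM. The part of these cells in the lower ligand levels was not tested.

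**Figure D3:**
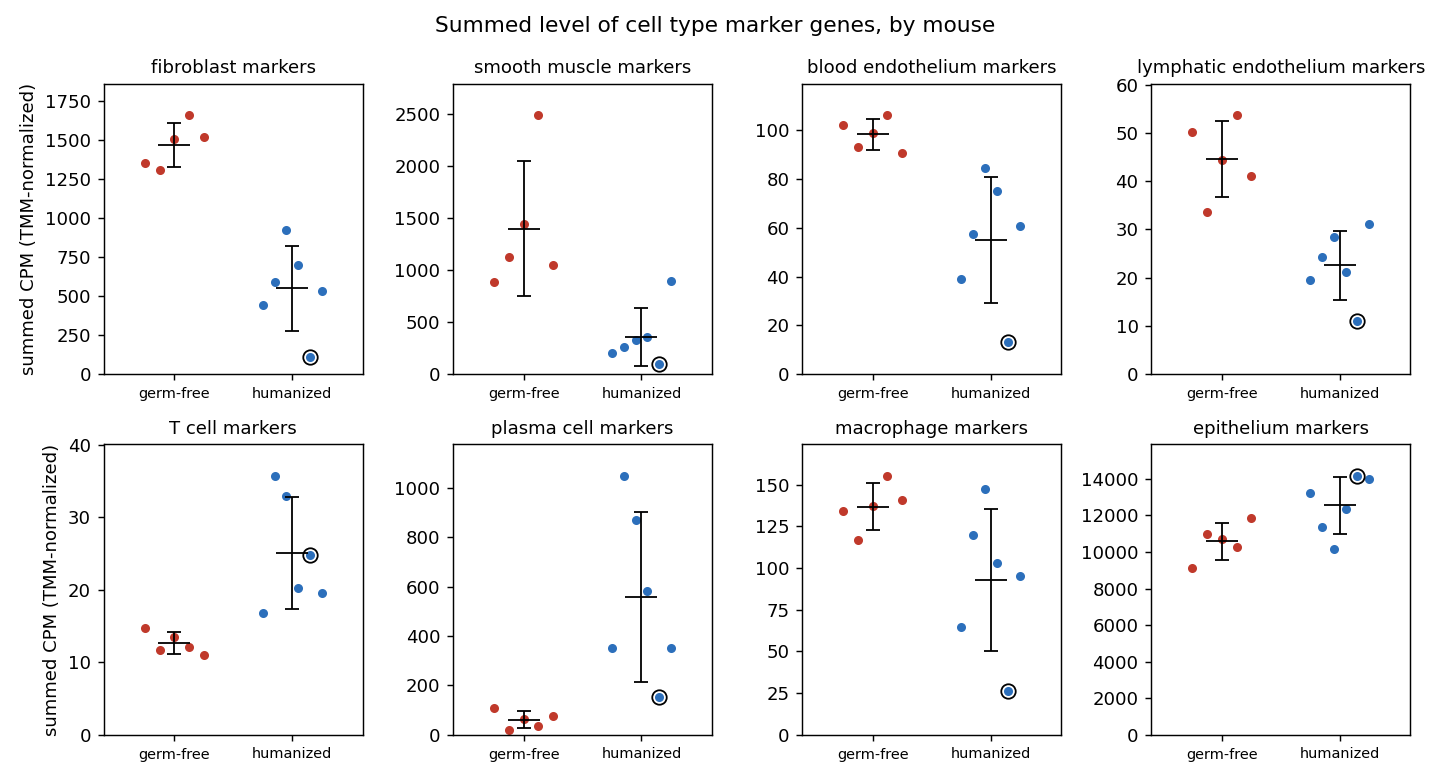
Summed CPM (vertical axes, each from 0) of 8 lists of cell type markers in each of the 5 germ-free (red) and 6 humanized (blue) mice. Black bars are the mean and SD, and a circle marks humanized mouse 5. That mouse is lowest of the humanized mice for fibroblast markers, 112 CPM, and highest for epithelial markers, 14181 CPM.

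Of the 4 atypical receptors 0 passed the edgeR exact test, the quasi-likelihood test or DESeq2, and 1, Ackr3, was lower at an unadjusted p below 0.05. Ackr4, which clears CCL19, CCL21 and CCL25, was the most abundant receptor of any kind. Its levels were 6.96, 4.81, 6.15, 7.21 and 6.48 RPKM in germ-free mice and from 5.40 through a median of 6.26 to 7.10 RPKM in humanized mice. The means of 6.32 ± 0.941 and 6.22 ± 0.563 RPKM differed by less than the spread between mice (LFC -0.02, SE 0.10, edgeR exact test FDR = 0.913). Ackr1, an endothelial receptor of venules, and Ackr2, a scavenger of inflammatory CC ligands, had LFCs of -0.41 (SE 0.38) and -0.42 (SE 0.37). In GENCODE M21 25.7% of the exon bases of Ackr1 and 8.9% of those of Ackr4 are shared with another gene.

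The membrane-anchored ligands differed little between the groups. Of the 6 tested genes of their group, which includes Xcl1 and Xcr1, only Xcl1 was called in the exact test, against 19.3% of all genes. Cx3cl1, fractalkine, which holds CX3CR1-bearing macrophages near the epithelium, had 12.3 ± 0.446 RPKM in germ-free and 11.8 ± 1.36 RPKM in humanized mice (LFC -0.06, SE 0.08, edgeR exact test FDR = 0.701). Cxcl16, which binds CXCR6 on resident T cells, had 4.27 ± 0.416 and 4.28 ± 1.44 RPKM (LFC 0.01, SE 0.20), and a gene on the opposite strand shares 18.3% of its exon bases. Their receptors Cx3cr1 and Cxcr6 were at 2.84 ± 0.454 and 2.31 ± 1.23 RPKM and at 1.68 ± 0.182 and 1.74 ± 0.826 RPKM, with LFCs of -0.30 (SE 0.36) and 0.05 (SE 0.29). Scaled by total counts, the LFCs of Cxcr6 and Cxcr3 turned to -0.11 and -0.09. Of the 16 signalling receptors 14 had a mean below 2 RPKM, and the highest was Cxcr4.

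The monocyte-attracting group had 0 of 5 tested genes called in the edgeR exact test, in the other tests or at an unadjusted p below 0.05, with a median LFC of 0.27. Ccl8, a macrophage-derived ligand, ran from 4.76 to 6.33 RPKM in germ-free mice and from 1.89 to 20.4 RPKM in humanized mice. Humanized mice 2 and 3 were high and mouse 5 was low, and the LFC of 0.84 (SE 0.46) did not pass (edgeR exact test FDR = 0.179). Ccl7 had the lowest LFC of the group, -0.41 (SE 0.38). Macrophage markers, with 1 of 7 lower (Mrc1) and a median LFC of -0.53, summed to 117 to 155 CPM and 26.5 to 147 CPM. Dendritic cell markers, with 1 of 5 lower (Zbtb46) and a median LFC of -0.65, summed to 16.5 to 18.5 CPM and 3.58 to 22.9 CPM. At an unadjusted p below 0.05 in the edgeR exact test 3 of 7 and 3 of 5 were lower, against 19.0% of all genes. The part of these cells in these levels was not tested.

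The members varied more among humanized than among germ-free mice. The coefficient of variation of RPKM was larger in humanized mice for 42 of 45 members, 93.3%, against 80.2% of all genes tested. Its median over members was 16.0% in germ-free and 47.7% in humanized mice, and over all genes tested it was 10.4% and 16.5%. Humanized mouse 5 was the lowest of its group for 32 members, 71.1%, while it was lowest for 28.2% of all tested genes. Mouse 3 was the highest for 23 members and mouse 2 for 12, and the matching shares of all tested genes were not computed. Both mice also had the highest summed T cell, B cell, plasma cell, follicle and macrophage markers of the humanized group.

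**Figure D4:**
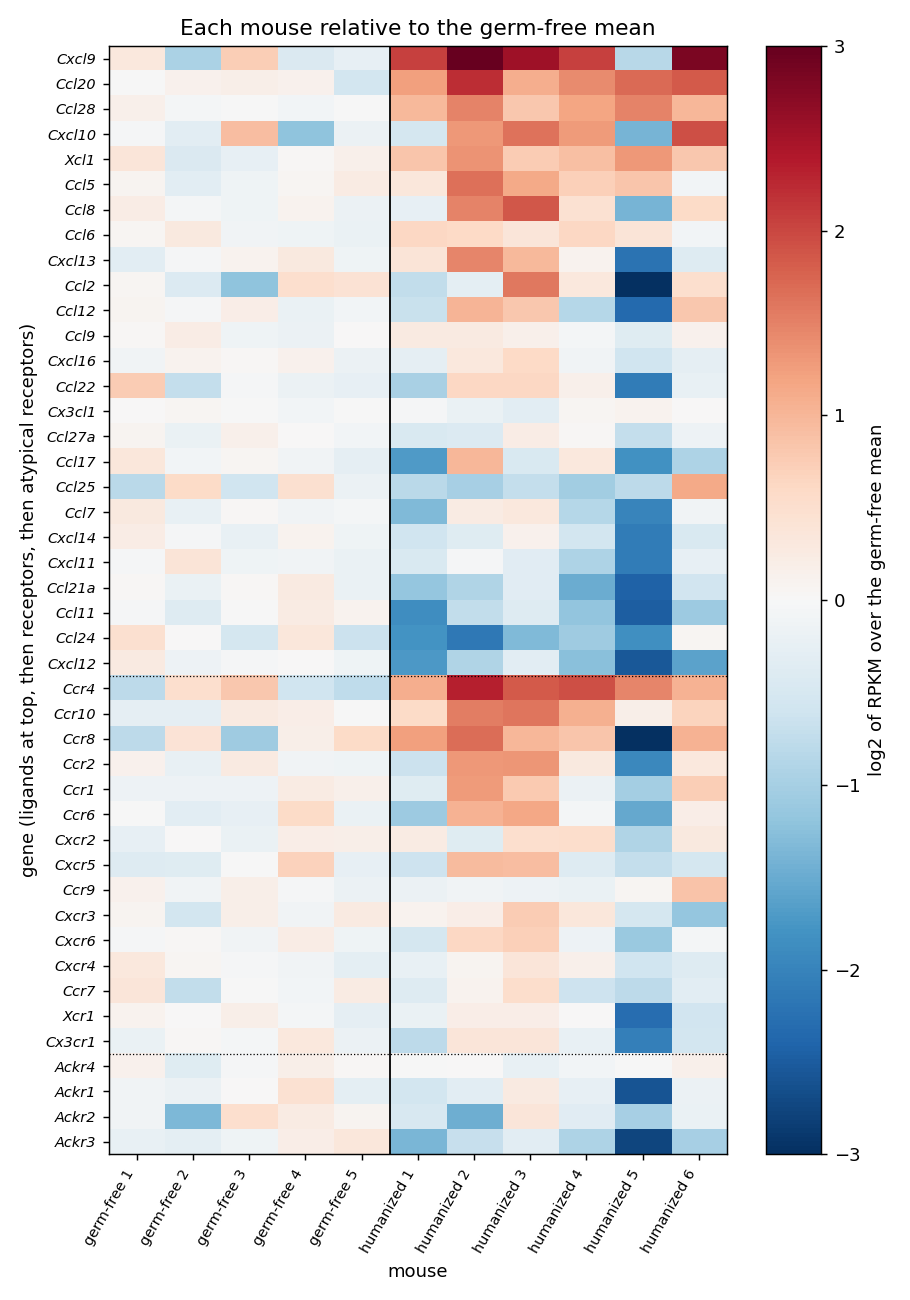
Each of 44 of the 45 members (vertical axis) in each of the 11 mice (horizontal axis), coloured by the log2 of RPKM over the germ-free mean, with 5% of that mean added to both and colours limited to 3 in either direction. Red is above and blue below the germ-free mean. The column of humanized mouse 5 is lowest of its group for 31 of the members drawn and that of mouse 3 highest for 22.

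A few members were uneven through mice other than mouse 5, and these were picked out after their values were seen. Ccl25 encodes the thymus- and small intestine-expressed ligand of CCR9, the receptor that homes lymphocytes to the gut. It was at 2.64, 7.23, 3.10, 6.75 and 4.23 RPKM in germ-free mice and from 2.21 through a median of 2.66 to 10.8 RPKM in humanized mice. Humanized mouse 6 stood far above the other 5, which lay at or below 2.81 RPKM, and without it Ccl25 had an LFC of -0.93 and was called lower (edgeR exact test FDR = 0.00531). Ccr9 was likewise highest in humanized mouse 6, at 0.957 RPKM, against 0.447 to 0.540 RPKM in the other humanized and 0.455 to 0.587 RPKM in the germ-free mice. With all mice neither passed, with LFCs of -0.29 (SE 0.44) for Ccl25 and 0.10 (SE 0.21) for Ccr9. In GENCODE M21 21.7% of the Ccr9 exon bases are shared with other genes.

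**Figure D5:**
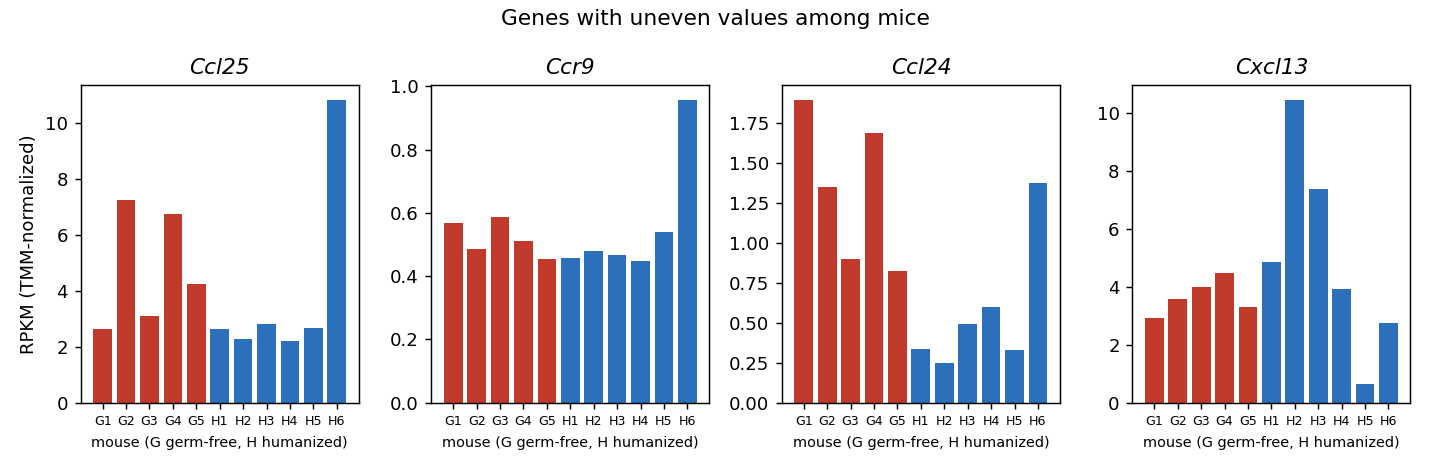
RPKM (vertical axes, from 0) of Ccl25, Ccr9, Ccl24 and Cxcl13 in each mouse, germ-free in red (G1 to G5) and humanized in blue (H1 to H6). Humanized mouse 6 is the highest mouse for Ccl25, at 10.8 RPKM, and for Ccr9, at 0.957 RPKM.

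The groups did not overlap for 8 of the 45 members, 17.8%, against 18.4% of all genes tested. Of these 4 were higher in humanized mice (Ccl20, Ccl28, Xcl1 and Ccr4), against 8.67% of all genes, and 4 were lower (Cxcl12, Ccl11, Ccl21a and Ackr3), against 9.73%. Without Ccr4 and Ccr8 the count was 7 of 43, or 16.3%, of which 3 were higher. The read minimum left out genes low in 1 group, such as Ccr3, from these counts.

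The neutrophil-attracting CXC system was close to undetected. Its ligands Cxcl1, Cxcl2, Cxcl3, Cxcl5 and Cxcl15 and its receptor Cxcr1 were all below the read minimum, and 47 reads were counted for Cxcl1 over all 11 mice, 12 in germ-free and 35 in humanized mice. Cxcr2, the tested gene of the group, was at 0.149 ± 0.0222 and 0.164 ± 0.0572 RPKM (LFC 0.14, SE 0.28). Of 5 neutrophil markers 2 were tested and 0 were called in the edgeR exact test, in the other tests or at an unadjusted p below 0.05. Their sums were 1.46 to 1.92 CPM and 0.800 to 5.17 CPM, and S100a8 and Ly6g had no read in any germ-free mouse. Other genes below the minimum included Ccl19, with 48 and 42 reads over the germ-free and the humanized mice, Ccl3, with 23 and 34, and Ccl4, with 15 and 26, and 3 of the 18 had no read in any mouse. The genes below the minimum were not tested.

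Of 25 tested genes of chemokine receptor signalling, a list read against the 19.3% of all genes called in the edgeR exact test, 1 was higher, the receptor kinase gene Adrbk1 (LFC 0.20, SE 0.05), and 1 was lower, the G protein regulator Rgs2 (LFC -0.61, SE 0.13), with a median LFC of 0.14. At an unadjusted p below 0.05 in that test 11 of these genes were higher, against 18.5% of all genes, and 4 were lower, against 19.0%, and DESeq2 called 3 higher and 2 lower at its FDR below 0.01. Of 14 tested homing and adhesion genes 0 were higher in the edgeR exact test, against 9.20% of all genes, and 1 was lower, against 10.1%. The lower gene was the sialomucin Cd34 (LFC -1.34, SE 0.34), which the quasi-likelihood test did not call (edgeR FDR = 0.0126). At an unadjusted p below 0.05 in the exact test 1 of the 14 was higher and 2 were lower, and DESeq2 called 0 higher and 1 lower. The addressin Madcam1, which guides lymphocytes into the gut wall, had an LFC of -0.45 (SE 0.37) and did not pass (edgeR exact test FDR = 0.426). Of 5 tested family genes outside the name pattern 1 was lower, the platelet chemokine Pf4. It had 10.4 RPKM in germ-free and 2.94 RPKM in humanized mice on average (LFC -1.82, SE 0.26, edgeR exact test FDR = 4.59e-09).

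Of 18 other chemoattractant genes 1 was higher, against 9.20% of all genes, and 5 were lower, against 10.1%, with a median LFC of -0.02. The quasi-likelihood test called 1 higher and 3 lower. The higher gene was Lta4h, which makes leukotriene B4 (LFC 0.38, SE 0.06). The lower genes were Ch25h and Cyp7b1, which make oxysterol attractants of lymphocytes (LFC -1.70 and -1.54), the sphingosine phosphate receptor S1pr1 (LFC -1.11), the chemerin gene Rarres2 (LFC -0.75) and Dpp4 (LFC -0.87). Dpp4 encodes a peptidase that trims several chemokines.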

How the data were processed

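The authors sequenced polyA RNA of each colon as 101 bp paired-end reads (TruSeq RNA Library Prep Kit v2), aligned them to mm10 with Bowtie 2.2.3 and TopHat 2.1.0 and counted reads per gene with featureCounts of Subread 1.4.6-p5. The annotation release and the strand setting are not given in the sources used here. The deposited table holds whole-number counts that are not normalized, with 1 column per mouse. It also gives a gene length, which lay within 5% of the GENCODE M21 exon length for 33 of the 45 members and was used for RPKM.

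Low genes were removed by filterByExpr with default settings (counts of at least 10, total of at least 15), libraries were scaled by TMM and genes were tested with the edgeR 4.0.16 exact test in R 4.3.3, with Benjamini-Hochberg adjustment over 19863 genes and a threshold of 0.01. SEs came from the quasi-likelihood fit, as the size of the LFC over the root of its F statistic. Single members were also compared by an exact two-sided permutation test of mean log2 CPM (prior count 2) over all 462 splits of 5 and 6 mice. The edgeR quasi-likelihood test and DESeq2 1.42.0 were alternatives. The p-values set the group difference against the spread between these mice and do not cover differences between donors or isolators. The steps were tested on simulated counts.

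The members and lists were chosen with earlier results of these data known. Genes were named if they were called, were among the 5 most abundant ligands or receptors, or were paired with a called member, and each group could be shown by its highest and lowest LFC. Ackr1, Ackr2, Ccl5, Ccl9, Ccl25, Ccr8, Ccr9, Cxcl10, Cxcl13, Cxcl14, Cxcl16, Madcam1 and the genes below the read minimum were named after their values were seen. No source used here says that same-numbered mice were paired. Results on 1 member are not reported here.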

Additional observations from a re-analysis of the deposited data

Results flagged for a closer look

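Among 90 groups of mice, each a member gene in germ-free or humanized mice, 6 held a value far from the other mice of its group by Dixon's 95% criterion, which chance meets in about 1 group in 20. Of these, 3 lay in humanized mouse 6. Ccl25 was at 10.8 RPKM there, against 2.81 RPKM in the next humanized mouse, Ccr9 at 0.957 RPKM against 0.540 RPKM, and Ccl24 at 1.38 RPKM against 0.598 RPKM. In germ-free mouse 4 Ccr6 was at 0.505 RPKM against 0.328 RPKM and Cxcr5 at 0.482 RPKM against 0.291 RPKM. In germ-free mouse 2 Cxcl11 was at 0.715 RPKM against 0.531 RPKM. No cause of these values was tested.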

How the results depend on the processing

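Of 24 alternatives, 2 only moved the threshold and kept the LFC. All 219 values of the 10 called members under the other 22 kept their direction, and 39 of them were no longer past the threshold. The number of lower members, 3, became 0 in the quasi-likelihood test, 5 with total-count scaling and 5 at an FDR below 0.05. It ran from 1 to 5 when each mouse was left out in turn. The number of higher members, 7, became 4 when libraries were scaled to the epithelial markers, losing Ccl6, Ccr10 and Xcl1, and ran from 5 to 8 when each mouse was left out. DESeq2 called 8 higher and 3 lower. The quasi-likelihood test without humanized mouse 5, added after the data were seen, called 7 higher and 4 lower. The cause of these changes was not tested. Over all alternatives the adjusted p ran from 3.82e-23 to 0.00220 for Ccl28, from 3.64e-10 to 0.00779 for Ccl20, from 3.00e-06 to 0.0226 for Xcl1, from 2.32e-11 to 0.0568 for Cxcl9 and from 1.78e-07 to 0.0260 for Cxcl12. For Ccr4 it ran from 1.11e-05 to 0.00907 where the gene was fitted. This range is a description only, since Ccr4 became a member through the group where it was high. A filter on 10 reads in every mouse removed Ccr4 and ended the call of Ccl6, which left 5 higher and 3 lower of 38 members fitted. The adjusted p ran from 7.95e-05 to 0.0540 for Ccr10, from 3.07e-05 to 0.362 for Ccl6, from 7.94e-05 to 0.0389 for Ccl11 and from 6.30e-04 to 0.0287 for Ccl21a.

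The fit with the replicate number as a block was a quasi-likelihood fit without humanized mouse 6, which has no same-numbered germ-free mouse. Against the exact test over all mice it called 4 members higher, losing Ccr10, Cxcl9 and Xcl1, and 0 lower. It had 7 members lower at an unadjusted p below 0.05. Without a block and with all mice, the quasi-likelihood test did not call Ccr10, Ccl6 or any lower member. The block fit called 1002 genes in all, against 2699 in the quasi-likelihood test without a block. These fits differ in the mice used as well as in the block. Deviations of same-numbered mice correlated from -0.133 to 0.0910, and the best partner had the same number for 2 germ-free and 1 humanized mice. These values show no pairing by number, but they cannot exclude a shared isolator or batch. In the block fit the LFC of Cxcr6 was -0.095 and that of Ccr6 -0.018.

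Of the 14 named members without a call that were refitted, 6 changed sign under an alternative. With total-count scaling Cxcr6 had an LFC of -0.11 and Cxcr3 of -0.091, and scaled to the epithelial markers they had -0.13 and -0.10. Without humanized mouse 5 the quasi-likelihood test gave 0.019 for Cxcr4 and 0.16 for Ccl22. Leaving out each mouse in turn, the LFC ran from -0.11 to 0.028 for Ackr4, from -0.25 to 0.24 for Ccl22, from -0.014 to 0.48 for Ccr6, from -0.14 to 0.24 for Cxcr3, from -0.18 to 0.024 for Cxcr4 and from -0.15 to 0.21 for Cxcr6. Depth limits what can be said of Ccr4, which rests on 7 to 39 reads a mouse, and of the 18 genes of the family below the read minimum.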
